A study of Mus musculus with 6 samples.

Results

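The regions described here are stretches of DNA inside genes, away from any promoter, at which both GATA4 and GATA6 were found in mouse extra-embryonic endoderm (XEN) cells. There were 762 of them among the 8282 regions of the combined GATA4 list. Members were chosen by measured values: a GATA4 region called in all GATA4 libraries had to overlap, by at least 1 bp, a GATA6 region called in all GATA6 libraries. Its midpoint had to lie more than 1 kb from every annotated transcription start site (TSS) and inside the body of a protein-coding gene. Of the 3744 GATA4 regions shared with the 5170 GATA6 regions, 2051 were promoter regions, with their midpoint within 1 kb of a TSS, 931 were distal and lay between genes, and 762 were distal and inside genes.

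CUT&RUN tethers a nuclease to a protein through an antibody, so that the DNA next to the protein is released and sequenced, and it was applied to each factor in XEN cells. All 6 libraries, 3 for GATA4 and 3 for GATA6, are labelled as the XEN line 3F2, with no treatment named. According to the methods of the study this family of lines is homozygous for Col1a1:OKSmCh (a doxycycline-inducible reprogramming cassette), R26:M2rtTA (the transactivator that drives it) and Oct4:EGFP, and every library shares these alleles. The methods name a further line, 3F6, and a different number of replicates. The labels were followed, and whether the replicates came from separate cultures is not stated, so each spread may be technical. Cell identity was not checked, since lists of called regions carry no marker levels. The labels state 30000000 reads per sample, and reads left after filtering are unknown. Each library list held between 42446 and 49597 regions.

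GATA4 and GATA6 are zinc-finger transcription factors of the primitive endoderm, the embryonic lineage that XEN cells represent. Both bind the core letters GATA, with A or T before them and A or G after them, on either DNA strand. Zfpm1 (FOG1) is a cofactor that binds the zinc finger of GATA factors. Laminins and type IV collagen are the main parts of the basement membrane that XEN cells and their parietal endoderm counterparts lay down.

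The following windows, reaching 100 bp to each side of the midpoint of a region, show how the motif sat in 7 of the regions. They were taken from introns of genes with a known part in primitive endoderm, its matrix or its signalling, so that the motif can be seen beside the genes discussed later. Only windows that held a motif were eligible, whereas 305 of the 762 regions held none. Capitals mark each GATA motif as it reads on the + strand, so that a motif on the other strand appears in reverse complement (GATA as TATC).
Gata4, chr14:63231827-63232027, + strand: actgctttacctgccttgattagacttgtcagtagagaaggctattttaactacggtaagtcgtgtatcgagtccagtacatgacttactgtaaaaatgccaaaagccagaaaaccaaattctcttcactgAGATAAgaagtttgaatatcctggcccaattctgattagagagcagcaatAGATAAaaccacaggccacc
Zfpm1, chr8:122313448-122313648, + strand: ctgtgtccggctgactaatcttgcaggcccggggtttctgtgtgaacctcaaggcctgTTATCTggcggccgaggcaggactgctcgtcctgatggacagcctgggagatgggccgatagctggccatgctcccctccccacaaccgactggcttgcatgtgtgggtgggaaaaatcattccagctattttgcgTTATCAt
Lamb1, chr12:31270840-31271040, + strand: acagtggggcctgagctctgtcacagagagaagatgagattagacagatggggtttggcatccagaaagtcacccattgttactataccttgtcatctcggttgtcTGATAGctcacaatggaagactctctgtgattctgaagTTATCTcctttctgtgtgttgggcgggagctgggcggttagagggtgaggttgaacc
Col4a2, chr8:11393307-11393507, + strand: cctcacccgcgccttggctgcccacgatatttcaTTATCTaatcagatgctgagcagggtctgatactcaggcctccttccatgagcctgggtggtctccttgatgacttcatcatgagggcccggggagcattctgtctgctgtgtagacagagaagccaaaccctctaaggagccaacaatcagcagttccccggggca
Cubn, chr2:13489496-13489696, + strand: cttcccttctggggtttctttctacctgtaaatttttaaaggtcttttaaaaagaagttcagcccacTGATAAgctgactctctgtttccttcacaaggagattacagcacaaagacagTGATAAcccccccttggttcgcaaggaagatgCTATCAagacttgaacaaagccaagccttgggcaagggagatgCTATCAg
Tead1, chr7:112781086-112781286, + strand: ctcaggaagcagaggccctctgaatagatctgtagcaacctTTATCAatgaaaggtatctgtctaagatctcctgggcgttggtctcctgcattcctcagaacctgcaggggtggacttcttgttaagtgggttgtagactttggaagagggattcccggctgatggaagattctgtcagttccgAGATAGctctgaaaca
Dusp4, chr8:34816136-34816336, + strand: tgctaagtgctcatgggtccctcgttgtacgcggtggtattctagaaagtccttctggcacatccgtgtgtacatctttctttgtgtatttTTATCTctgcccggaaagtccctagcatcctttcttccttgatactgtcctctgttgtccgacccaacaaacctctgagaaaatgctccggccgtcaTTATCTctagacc
These windows held between 1 and 4 motifs each. In the Lamb1 window the nearest motif lay 3 bp from the position of maximum GATA4 signal and 11 bp from that of GATA6. In Cubn these distances were 4 and 9 bp, and in Dusp4 they were 5 and 2 bp. The motif was not always at the maximum: in Gata4 the motifs of the window lay 664 and 657 bp or more from the GATA4 and GATA6 maxima, since the region spanned 2742 bp and its maximum was to one side. In eligible windows not printed here, the nearest motif lay 781 and 700 bp from the GATA4 and GATA6 maxima in Cald1. It lay 217 and 335 bp away in Tpm4, and 47 and 24 bp away in P4ha2.

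The first question was whether DNA at these regions carried the GATA motif more often than the DNA around it. The motif was present within 100 bp of the midpoint in 457 of 762 regions, or 60.0% (exact 95% binomial interval 56.4 to 63.5). Windows of the same size 2 kb to either side of the same regions held it in 431 of 1524 cases, or 28.3% (26.0 to 30.6). The difference of 31.7 percentage points exceeded counting error (Fisher's exact test over regions, two-sided, p = 3.84e-48, Benjamini-Hochberg adjusted over 5 motif comparisons 9.60e-48). Regions are not replicates, and this interval and test cover counting error only. Fisher's test also ignores that each region was matched to its own flanks. Paired with the flank at higher coordinates, 330 regions held the motif where the flank did not. The reverse was true of 94 (exact sign test p = 7.88e-32). Among 392430 windows of the same genes that lay outside called regions, 33.9% held the motif, and among all combined GATA4 regions 39.9% did. The motif was therefore more frequent in the regions than in either kind of surrounding gene sequence.

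**Figure D1:**
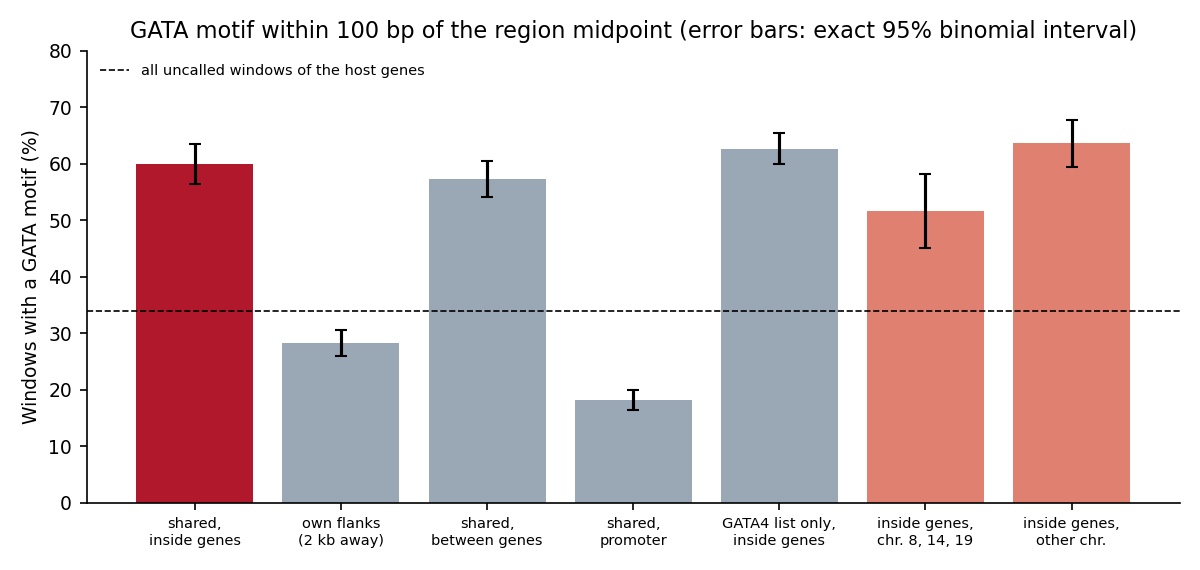
Share of windows (100 bp to each side of the midpoint) with a GATA motif (y axis, %) in each class of region (x axis), with error bars as the exact 95% binomial interval over regions and a dashed line for uncalled windows of the host genes. The bar of shared regions inside genes stands at 60.0%, above its flanks at 28.3% and shared promoter regions at 18.1%.

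Shared regions inside genes were then set beside other classes that the same libraries yielded. Shared distal regions between genes held the motif in 534 of 931 cases (57.4%), a difference of 2.62 points that did not pass the test (Fisher's exact p = 0.298, adjusted 0.298). GATA4 regions inside genes without a combined GATA6 region held it in 764 of 1219 cases (62.7%), and the difference of -2.70 points did not pass either (Fisher's exact p = 0.235, adjusted 0.294). Shared promoter regions held it in 372 of 2051 cases (18.1%), which was 41.8 points lower (Fisher's exact p = 3.09e-98, adjusted 1.55e-97). The median GC content of the windows was 48.3% inside genes, 47.8% between genes and 60.2% at promoters, and the part of GC content in the motif shares was not tested. The comparisons with regions between genes and with regions of the GATA4 list alone depended on which libraries entered. With regions called in at least 2 of 3 replicates the differences became 5.62 points (Fisher's exact p = 0.000302) and 6.54 points (Fisher's exact p = 4.80e-06).

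Motifs were densest near the position of maximum signal. Within 50 bp of this position (the median over the 6 libraries) there were 8.48 motifs per kb, against 2.10 per kb at 500 to 1000 bp, a ratio of 4.04. The median width was 845 bp, so these farther distances lay largely outside the regions. In the bins centred 175 bp before and after the maximum the density was 2.41 and 2.70 per kb. A motif lay within 50 bp of this position in 422 regions (55.4%), whereas 109 regions (14.3%) had none within 250 bp of it. Shared regions between genes had 7.57 motifs per kb within 50 bp. Shared promoter regions had 1.31 per kb there and 1.61 per kb at 500 to 1000 bp. Along promoters the density dipped to 0.829 per kb in the bin centred 175 bp before the maximum and reached 1.37 per kb in the bin just after it, a local rise that stayed below the mean at 500 to 1000 bp.

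**Figure D2:**
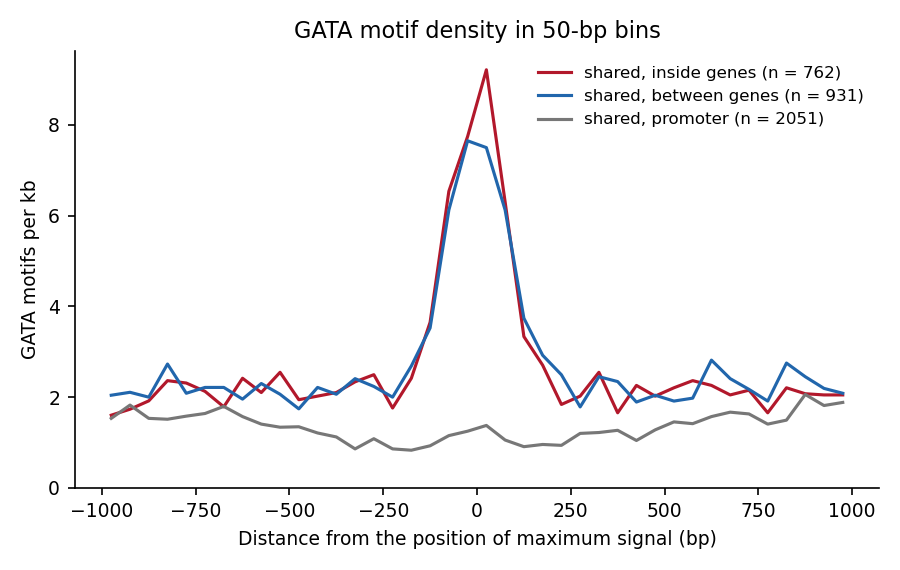
GATA motifs per kb (y axis) in 50-bp bins by distance in bp from the position of maximum signal (x axis), for the 3 classes of shared regions. The line of the 762 regions inside genes peaks at the maximum, where density within 50 bp is 8.48 per kb, and falls to 2.10 per kb at 500 to 1000 bp, while the promoter line rises locally to 1.37 per kb beside the maximum.

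The regions differed among themselves in the number of motifs: 305 held none in the window, 222 held 1, 145 held 2 and 90 held at least 3. The 4 spellings of the motif were not equally enriched over the flanks. Per window, AGATAA was 4.09 times as frequent in the regions as in the flanks, and TGATAA 3.27 times. The spellings ending in G were less so, with TGATAG at 2.24 times and AGATAG at 2.09 times. Introns held the motif in 442 of 715 regions (61.8%), coding exons in 4 of 18 (22.2%) and untranslated exon parts in 8 of 21 (38.1%).

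Regions with and without the motif also differed in setting, described here without a test. The 305 regions without it had a median GC content of 50.2%, against 47.3% in the 457 with it. Their median distance from a TSS was 7036 bp, against 9072 bp. The SP/KLF box GGGCGG, a GC-rich sequence typical of promoters, occurred in 23.6% of regions without the GATA motif and in 7.44% of those with it. It occurred in 3.87% of flanks, in 30.0% of all combined GATA4 regions and in 52.3% of shared promoter regions.

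Letters of other transcription factor families were searched in the same windows and on both strands, and a match describes the sequence only. The SOX letters ACAANG occurred in 48.8% of the regions and 36.3% of flanks. The TEAD letters GGAATG, bound by the factors at the end of the Hippo pathway, occurred in 17.3% and 13.2%. The AP-1 letters TGANTCA occurred in 9.97% of the regions, 5.91% of flanks and 7.46% of all combined GATA4 regions. Shared regions between genes held the SOX, TEAD and AP-1 letters in 47.9%, 16.8% and 9.77% of cases. GATA4 regions inside genes without a combined GATA6 region held them in 48.7%, 19.9% and 10.7%. These shares were therefore not particular to the shared regions inside genes. The FOX letters TGTTTNC (15.1% and 15.8%) and the NFY box CCAAT (22.8% and 24.7%) were about as frequent in the regions as in the flanks. The CREB palindrome TGACGTCA occurred in 10 regions (1.31%), in 0.0656% of flanks and in 0.139% of uncalled windows of the host genes, and in 1.36% of all combined GATA4 regions.

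Most regions were intronic. Their midpoints lay in introns in 715 cases (93.8%), in untranslated parts of exons in 21, in coding exons in 18 and in exons of non-coding transcripts in 8. Of the 652 in an intron of the main transcript of their gene, 222 (34.0%, interval 30.4 to 37.8) were in intron 1, which held 29.4% of the distal intron bases of these genes. Intron 2 held 98, and 15.5% of the bases. The median distance to the nearest TSS was 8150 bp, with quartiles of 3424 and 20197 bp, and 333 regions (43.7%) lay more than 10 kb from any TSS. The median width was 845 bp, and 128 regions had another within 10 kb.

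The 762 regions lay in 615 of 21938 protein-coding genes (2.80%, exact 95% interval 2.59 to 3.03). Long genes hold more DNA in which a region can fall. The share of genes with a region was 0.328% among the 25% shortest genes (up to 6.52 kb) and 7.53% among the 25% longest (over 45.1 kb), and the median length was 77.2 kb for host genes and 17.4 kb for all protein-coding genes. Each region was given 1 named host gene, since 32 regions lay inside more than 1 gene. Of these 593 named hosts, 484 held 1 region, 76 held 2, 22 held 3 and 11 held 4 or more. A shared region at the promoter as well was found for 122 named hosts (20.6%), against 9.86% of the other 21345 genes, a difference that was not tested.

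The genes with most regions differed widely in function. Sfi1, which encodes a centrosomal protein, held 9. Ahnak, a very large scaffold protein, held 7 and Dnmbp, an exchange factor for the small GTPase CDC42, held 6. Pik3ap1, an adaptor of phosphoinositide 3-kinase, and Rgl1, an exchange factor for Ral GTPases, held 5 each. Ank3 (ankyrin-G), Cd244a (a receptor of natural killer cells), Pard3 (a cell polarity protein) and Zfpm1 held 4 each. Gm47283 on the Y chromosome held 5. Gm20388, a read-through gene model that spans 4435 kb of chromosome 8, contained 18 regions and was the sole host of 7, so its count describes the length of the model. Without the regions named for Sfi1, Gm20388 and Gm47283 the differences in motif share kept their direction and their side of the threshold, as given in the closing section.

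Host genes were next examined in 10 lists of 244 genes, made for XEN and primitive endoderm biology. They held 36 of the regions, in 24 genes, and 25 of the 36 (69.4%) carried the motif, against 60.0% of all 762. The counts below are to be read against 2.80% of all protein-coding genes with a region and against gene length. The basement membrane list had 7 of 32 genes with a region (median length of the list 65.3 kb). The actin cytoskeleton and adhesion list had 5 of 30 (75.3 kb), and the list of primitive endoderm transcription factors had 3 of 20 (11.4 kb). PDGF, KIT and FGF signalling had 2 of 30, endocytic receptors 2 of 22, the Hippo pathway 2 of 19, BMP, TGF-beta and Nodal signalling 2 of 29, and WNT signalling 1 of 24. None of the 26 pluripotency genes (median 14.8 kb) and none of the 12 AP-1 genes (9.75 kb) held one.

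Among transcription factors, the gene of GATA4 itself held 2 regions. The stronger, in intron 2 at chr14:63230556-63233297, had maximum signals of 38, 33 and 35 in GATA4 replicates 1, 2 and 3 and of 14, 13 and 14 in the GATA6 libraries. These maxima count stacked fragments and are not scaled for depth, so the levels of the factors cannot be compared from them. The region stood at a mean percentile of 99.9 by total signal within the 6 lists. Zfpm1 held 4 regions, all also inside the Gm20388 model. The strongest, in intron 1 at chr8:122293595-122294739, had maxima of 24, 21 and 25 for GATA4 and 17, 17 and 15 for GATA6, without a motif in the window. The one printed above, in intron 3, had maxima of 21, 18 and 11 for GATA4 and 10, 8 and 8 for GATA6.

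In the basement membrane list, the intron 4 region of Col4a2, a chain of type IV collagen, had maxima of 21, 14 and 24 with GATA4 and 8, 10 and 12 with GATA6. Lamb1, the laminin beta 1 chain, had a region in intron 3 with maxima of 17, 16 and 12 and of 12, 6 and 12, so here the ranges met. Lamc1, the laminin gamma 1 chain, held 2 regions in intron 1, and the stronger had maxima of 9, 5 and 8 and of 6, 7 and 8. P4ha2, a prolyl hydroxylase of collagen, had one in intron 2 with maxima of 10, 11 and 8 and of 6, 6 and 6. Sparc and Fbln1, which encode matrix proteins, and Plod2, a collagen lysyl hydroxylase, each held a region at mean percentiles of 82.8, 81.0 and 63.0. The list members with a region thus included laminin chains, a single chain of type IV collagen and 2 enzymes that modify collagen.

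For signalling genes, Tead1, a DNA-binding factor of the Hippo pathway, held a region in intron 2 with maxima of 29, 29 and 24 for GATA4 and 11, 12 and 9 for GATA6, and a weaker one in the same intron. Wwc1 (KIBRA), an upstream Hippo protein, held one in an untranslated exon part with maxima of 5, 10 and 8 and of 14, 12 and 12. Dusp4, a phosphatase of MAP kinases, had maxima of 11, 8 and 6 and of 8, 13 and 14 in intron 1. Both regions counted for Fgfr2 lay inside other genes, Chst15 and Fam53b, which the annotation places within a long Fgfr2 model, so they are not specific to Fgfr2. Smad2 and Smad5, transducers of TGF-beta and BMP signals, held 1 region each at mean percentiles of 97.2 and 89.9. Tcf7l2, a nuclear partner of beta-catenin, held 2, at 78.3 and 61.9.

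Among endocytic receptors, Cubn (cubilin, an uptake receptor of visceral endoderm) had a region with 4 motifs in intron 3 and maxima of 8, 12 and 10 for GATA4 and 6, 7 and 6 for GATA6. Among cytoskeletal genes, Tpm4 (a tropomyosin) reached 18, 20 and 17 for GATA4 and 12, 12 and 12 for GATA6 in intron 7. Cald1 (caldesmon) reached 13, 12 and 12 and 11, 5 and 8. Actn4 (alpha-actinin) and Palld (palladin) held weaker ones, at mean percentiles from 71.0 to 85.5.

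**Figure D3:**
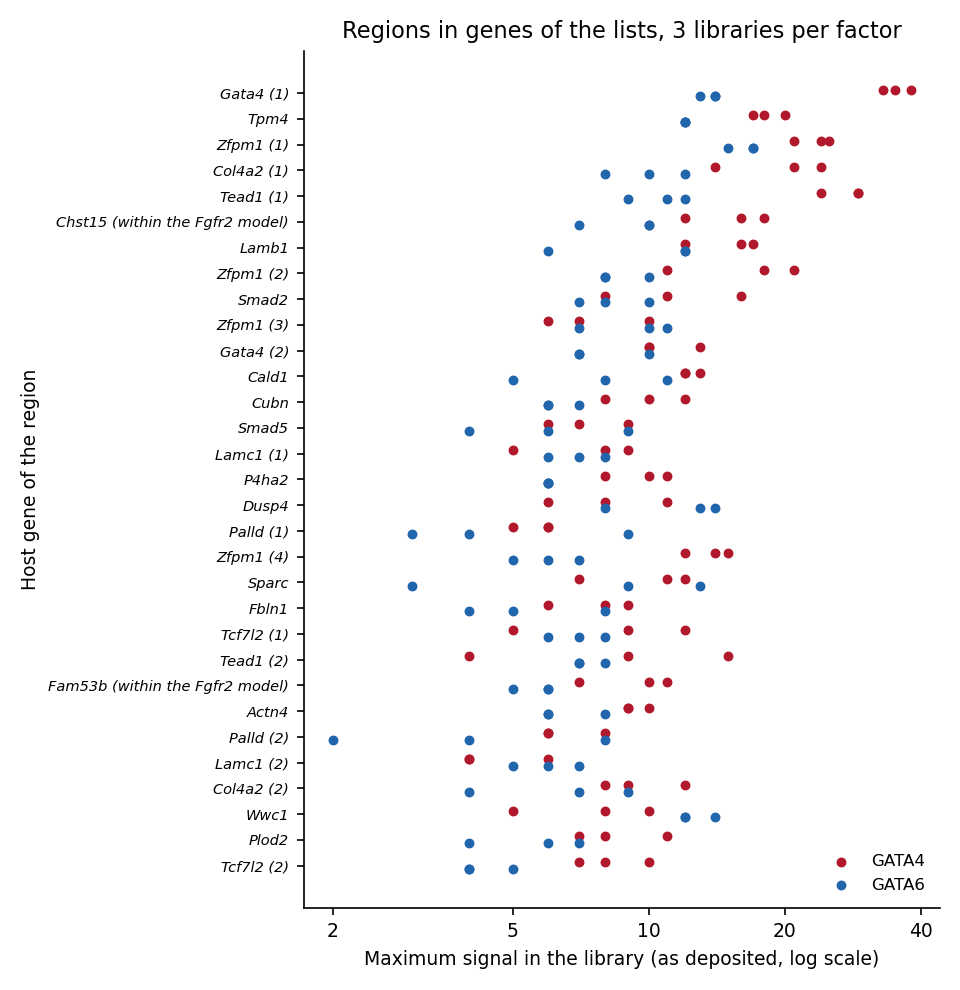
Maximum signal as deposited (x axis, log scale) of 31 of the 36 regions in genes of the lists (y axis, by host gene, ordered by mean percentile of total signal), with 1 point per library, 3 in red for GATA4 and 3 in blue for GATA6. The Gata4 intron 2 region is the first in this order, with 33 to 38 for GATA4 and 13 to 14 for GATA6, and depth is not scaled between libraries.

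Outside these lists, the highest mean percentiles of total signal belonged to several unlike regions. A region of 8224 bp in Sfi1 stood first, with maxima of 21, 20 and 23 for GATA4 and 24, 19 and 23 for GATA6. Short regions in Cldn34d (a claudin gene on the X chromosome), Lars2 (the mitochondrial leucyl-tRNA synthetase) and Mdga2 (a neuronal cell-surface protein) followed. The Lars2 region, 461 bp in an untranslated exon part, had the highest maxima, 92, 89 and 110 for GATA4 and 82, 73 and 82 for GATA6. After Gata4 came regions in Zfhx3 (a zinc-finger homeobox factor), Cacna1d (a calcium channel subunit), 1700016D06Rik, Nrg1 (neuregulin 1) and Vwa7. Zfhx3, with 3 motifs, had maxima of 35, 29 and 31 in the GATA4 libraries and 16, 14 and 18 in the GATA6 libraries. In Cldn34d and Mdga2 no motif was present, and repeats covered 9.95% and 85.6% of the windows. Without a control library in the calls, whether the signal of these top regions marks binding was not tested.

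Signal over all 762 regions was compared with that of the other shared regions as the percentile of total signal within each list. The median percentile was 95.1, 94.7 and 93.7 in GATA4 replicates 1, 2 and 3 and 91.8, 91.5 and 92.4 in the GATA6 libraries. The median maximum was 11, 10 and 10 in the GATA4 libraries and 8, 7 and 8 in the GATA6 libraries, where that of each whole list was 4. High ranks follow in part from the rule, since a region had to be called in all 6 libraries. The top 10% of all 6 lists held 170 regions (22.3%), and 61.8% of those carried the motif.

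Against shared regions between genes, the median percentile was lower in 6 of 6 libraries, by 0.921 ± 0.386 points on average (SD, n = 6). The exact two-sided sign-flip test gave p = 0.03125, the smallest it can give with 6 libraries, and 0.0938 after adjustment over 3 comparisons, so the difference did not pass the correction. By maximum signal it was 0, and per base pair of region 0.0428. Against shared promoter regions the mean difference was 0.314 ± 1.34 points (exact p = 0.594, adjusted 0.594). It was 1.69, 1.98 and 0.654 points in the GATA4 libraries and -1.24, -0.801 and -0.402 points in the GATA6 libraries, so every GATA4 value was above every GATA6 value. The 2.25-point gap between the factors gave p = 0.1 in an exact two-sided permutation test, the smallest that 3 against 3 libraries allow. Regions with the motif ranked 0.756 ± 1.58 points above those without (higher in 4 of 6 libraries, exact p = 0.3125, adjusted 0.469).

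**Figure D4:**
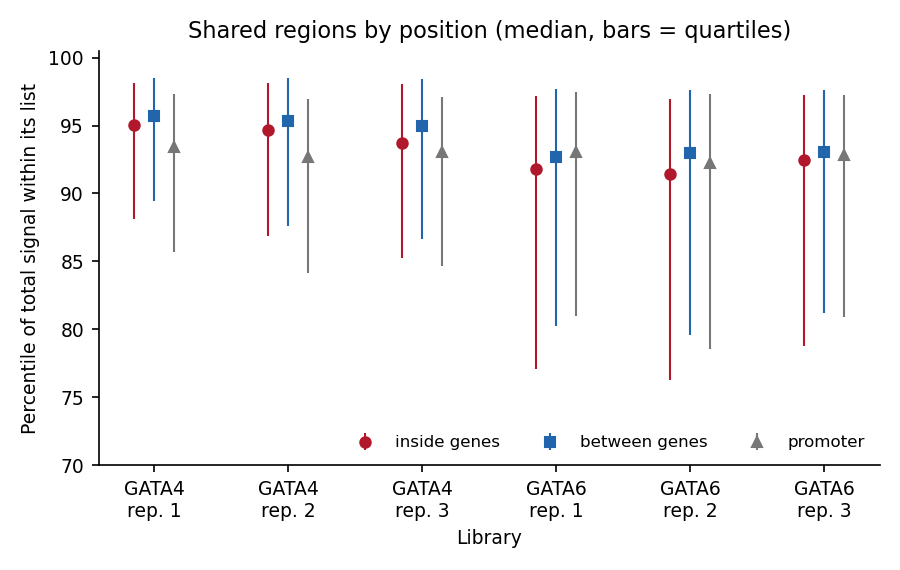
Percentile of total signal within the list of its own library (y axis, from 70) for shared regions inside genes, between genes and at promoters in each of the 6 libraries (x axis), with points as medians and bars from the lower to the upper quartile. The medians of regions inside genes lie between 91.5 and 95.1, above those of promoters in the 3 GATA4 libraries and below them in the 3 GATA6 libraries.

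The positions of maximum signal of the factors mostly lay close together. This follows in part from the rule, since the GATA4 and GATA6 regions had to overlap. The GATA6 region covered a median of 82.3% of the GATA4 region. The median GATA4 and GATA6 positions of maximum signal were within 100 bp in 634 regions (83.2%), with a median gap of 27.5 bp. In 527 regions (69.2%) all 6 positions fell within 200 bp. The median gap between a pair of libraries was 38.5 ± 5.47 bp for the same factor and 43.1 ± 1.78 bp for different factors (SD over pairs). The exact permutation p for this contrast was 0.1, the smallest that 10 divisions of the libraries allow. Only the GATA4 pairs had smaller gaps, with 31, 35 and 36 bp. The GATA6 pairs had 45, 44 and 40 bp, much like pairs of different factors (41 to 46.5 bp).

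Whether any region was favoured by a factor was tested on total signal relative to the median shared region of the same library, on a log2 scale, with limma over all 3744 shared regions. It called 227 of them at an adjusted p under 0.05 (6.06%), 102 higher with GATA4 (2.72%) and 125 higher with GATA6 (3.34%). Of the 762 regions inside genes, 63 were called (8.27%), 34 higher with GATA4 (4.46%) and 29 higher with GATA6 (3.81%). Each of these shares was above that over all shared regions, which include the 762, and the differences were not tested. GATA4 signal was summed over the calls at the GATA4 region, and GATA6 signal over the calls at every GATA6 region that overlapped it. The stretches measured could therefore differ between the factors. The width called in each library moved with the calls. Those higher with GATA4 spanned a median of 1107 bp in GATA4 libraries and 593 bp in GATA6 libraries, and those higher with GATA6 spanned 571 and 1781 bp. With signal per base pair none of the 762 was called (100 at an unadjusted p under 0.05), against 9 of all 3744. With the rank of the region none of the 3744 was called (141 of the 762 at an unadjusted p under 0.05). With the maximum signal 18 of the 762 were called, against 89 of all 3744. The higher share of calls among the 762 was therefore not seen with these measures.

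Among the largest differences toward GATA4 were those in Crlf2 (a cytokine receptor), Peg3 (an imprinted zinc-finger gene), Atrnl1 and Fam129b. In Crlf2 the relative log2 signal was 2.32, 2.48 and 2.11 in the GATA4 libraries and -0.78, 0.69 and -0.52 in the GATA6 libraries, without overlap. The difference was 2.51 ± 0.29 (SE, limma adjusted p = 4.33e-09), and the called width averaged 2219 bp with GATA4 and 575 bp with GATA6. In Peg3 the difference was 1.99 ± 0.32 (limma adjusted p = 1.66e-05), with called widths of 1924 and 471 bp. Of the regions counted for the lists, the one in Tead1 was also called (1.03 ± 0.28, limma adjusted p = 0.0143). So was the one in Chst15 (0.91 ± 0.28, limma adjusted p = 0.0403), which is counted only through the long Fgfr2 model and is not specific to Fgfr2.

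The largest differences toward GATA6 were in Nkx2-3 (a homeobox gene), in Cd244a with 2 regions, in Sfi1 and in Cln8. In Nkx2-3 the relative log2 signal was -1.43, -1.44 and -1.23 with GATA4 and 2.11, 2.16 and 1.68 with GATA6, a difference of -3.35 ± 0.34 (limma adjusted p = 4.66e-11). The called width averaged 359 bp with GATA4 and 1781 bp with GATA6, the maxima of the factors lay 1382 bp apart, and per base pair this region was not called. Both Cd244a regions overlapped the same GATA6 region and so shared its values, as did 22 of the 762 regions in all. Of these 22, 7 were among the 63 called. Among the 29 regions higher with GATA6, 10 had maxima more than 500 bp apart, against 16 of the 699 that were not called.

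Regions were dense on chromosomes 8, 14 and 19, a group picked from these lists in earlier work on them. These chromosomes make up 12.8% of autosomal length and held 236 of the 762 (31.0%), or 3.12 times as many per Mb as the other autosomes. The same ratio was 2.74 for shared regions between genes and 2.72 at promoters, and between 27.2% and 32.5% of all regions in a library list lay there. Chromosome 19 had 1.22 and chromosome 8 had 0.781 per Mb, while chromosomes 14 and 11 had 0.480 and 0.483. On chromosome 1, 25 of 80 regions fell between 150 and 170 Mb. Of those 25, 72% held the motif, against 60.0% of all 762, a difference that was not tested.

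**Figure D5:**
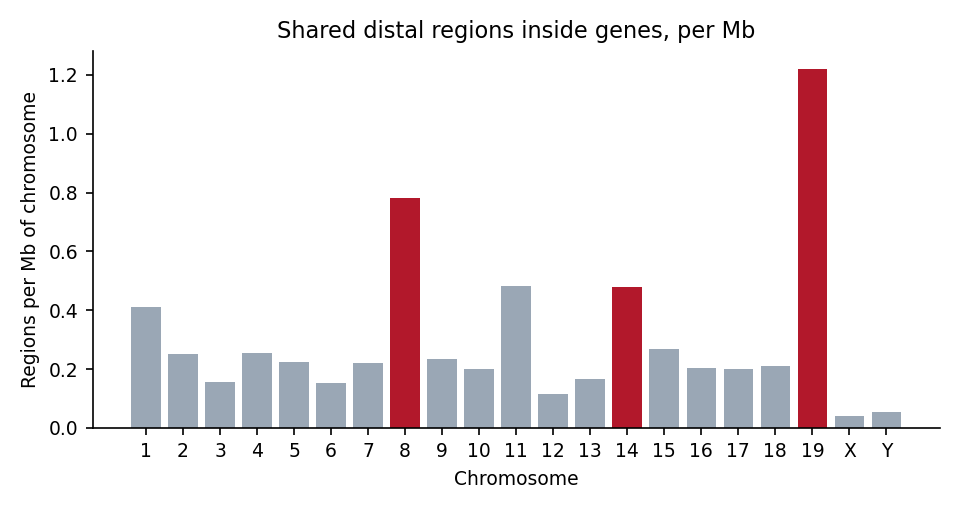
Shared distal regions inside genes per Mb of chromosome (y axis, bars from 0) for each chromosome (x axis), with chromosomes 8, 14 and 19 in red. Chromosome 19 stands highest at 1.22 per Mb, followed by chromosome 8 at 0.781, and chromosome 14 at 0.480 is level with chromosome 11 at 0.483.

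On chromosomes 8, 14 and 19 the motif was present in 122 of 236 regions (51.7%, interval 45.1 to 58.2), against 335 of 526 elsewhere (63.7%, 59.4 to 67.8). The difference of -12.0 points passed the test (Fisher's exact p = 0.00234, adjusted 0.00390). The flanks did not follow it, with 28.6% and 28.1%. A motif within 50 bp of the maximum was found in 53.0% and 56.5%. Regions there ranked 3.66 ± 0.30 percentile points above the others in the GATA6 libraries and -0.60 ± 0.70 points in the GATA4 libraries (SD, n = 3 each; exact permutation p = 0.1, the smallest possible). Of the 36 regions in genes of the lists, 16 were on these chromosomes, those in Gata4, Zfpm1, Col4a2 and Tpm4 among them.

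The following values describe regions at the limits of the rule. The region nearest to a TSS was in Nmnat2, 1008 bp away with a mean percentile of 69.0, and the one just outside was in Ccdc63, 979 bp away with 97.9. The smallest overlap of a member with a GATA6 region was 60 bp, in Bcl2l1, and the closest GATA4 region that was left out, in Glud1, ended 16 bp from a GATA6 region.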

How the data were processed

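CUT&RUN libraries of GATA4 and GATA6 in XEN cells were grouped by the sample titles. The authors aligned reads to mm10 with Bowtie2 2.3.4.1, filtered them and called regions in each library with SEACR 1.3, whose total and maximum signal per region were used as the authors deposited them, unscaled for depth. Per the study's methods the call used a numeric threshold without normalisation or a control library, which largely sets how many regions a list holds. The combined lists hold positions of regions called in all libraries of a factor. Signal was therefore used as a percentile within a list, or as log2 relative to the median shared region of the library. No depth after filtering is given, so precision is given by the spread over libraries or by exact (Clopper-Pearson) binomial intervals over regions, which cover counting error only.

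Positions and genes came from GENCODE M21 (GRCm38, protein-coding and lncRNA genes, all transcripts) and sequence from the GRCm38 genome. The motif was sought within 100 bp of the midpoint on both strands, with flanks 2 kb away. Fisher's exact test and an exact sign test (over regions), exact sign-flip and permutation tests (over libraries) and limma 3.58.1 (R 4.3.3) were used. GATA4 and GATA6 libraries of the same number were not treated as pairs, since their deviations correlated at -0.013, 0.043 and 0.021. Overlap, motif and limma code was tested on simulated data. The members, gene lists and tests were chosen with earlier results of these data known. Named are the 10 regions with the highest mean percentile (those in Sfi1 counted as 1), the genes with most regions, up to 4 regions per gene list and some weaker ones chosen after their values were seen, the 5 largest limma differences in each direction and regions at the limits of the rule. Some genes of the lists are counted but not reported here by name. Alternatives covered replicates required, overlap, TSS distance and set, threshold, window, centre, motif, flanks, chromosomes, signal measure, pairing and each library left out.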

Additional observations from a re-analysis of the deposited data

Results flagged for a closer look

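One result stood out because the factors differed in direction. The median percentile of shared regions inside genes, minus that of shared promoter regions, was positive in all 3 GATA4 libraries (mean 1.44 ± 0.70, SD) and negative in all 3 GATA6 libraries (-0.813 ± 0.417). The difference between the factors was 2.25 points, with an exact permutation p of 0.1, the smallest that 3 against 3 libraries can give, so it did not reach the threshold of 0.05 and could not have.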

How the results depend on the processing

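Of 124 recomputed values, 92 kept their direction and their side of the threshold, or stayed close to the reported value. In this section the threshold is an unadjusted p under 0.05, also for comparisons judged above by an adjusted p. For counts, close was a wide band. It took in 523 and 962 regions, against the 762 reported, and 155 limma calls, against 227. The difference in motif share from the flanks stayed between 26.8 and 42.8 points, that from promoters between 35.6 and 54.4, and that between chromosomes 8, 14 and 19 and the others between -12.8 and -6.23, all past the threshold. These ranges include leaving out the regions in Sfi1, Gm20388 and Gm47283, an alternative chosen after seeing the data. Asking for a call in at least 2 of 3 replicates gave 1899 regions, in 6.18% of genes, a difference from regions between genes of 5.62 points and one from regions of the GATA4 list alone of 6.54 points, now above 0. With 1 library left out, the number ranged from 823 to 962 and the share of genes from 2.95% to 3.48%. It was 2.27% beyond 2.5 kb from a TSS and 1.93% in the stronger lists. With 1 library left out, the difference from regions between genes ranged from 2.15 to 5.11 points and passed the threshold without GATA4 replicate 1 (5.11), GATA6 replicate 2 (4.53) or GATA6 replicate 3 (4.68). It also passed, narrowly, without chromosomes 8, 14 and 19 (5.75, Fisher's exact p = 0.0491). None of these passes was adjusted over the motif comparisons. The difference from the GATA4 list alone ranged from -2.82 to 3.64 and turned positive without GATA4 replicate 1 (3.64), GATA4 replicate 2 (2.01) or GATA6 replicate 3 (0.274).

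The signal percentile against promoters became -0.979 per base pair and -0.0197 without GATA4 replicate 2 (range with a library left out -0.0197 to 0.624). Against regions between genes it became 0 by maximum signal and 0.0428 per base pair. With a library left out it was -0.986 to -0.803, where 5 libraries allow no p below 0.0625, and with the replicate block, which averages same-numbered libraries, it was -0.921 (exact p = 0.25). The 227 limma calls became 89 by maximum signal, 9 per base pair, 0 by rank (604 at an unadjusted p under 0.05), 284 with the replicate block and 110 to 222 with a library left out, the lowest without GATA4 replicate 2. Among the 762 regions the block gave 81 calls, and leaving out GATA4 replicate 1, GATA4 replicate 2 or GATA6 replicate 3 gave 40, 28 or 43. The causes were not tested. Most maxima are low whole numbers of fragments, which limits the precision of a single region.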
